A study of Mus musculus with 12 samples.

Results

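The 9 genes described here are best known from the oocyte and the first divisions of the embryo: Ooep, Khdc3, Dppa3, Khdc1a, Khdc1c, Dppa5a, Tcl1, Pramel6 and Pramel7. They were chosen by name from the genes counted in RNA sequencing of mouse embryonic stem cells. All 9 symbols matched a gene among the 55416 in each count file, and all 9 passed the filter on low counts. Khdc1a and Khdc1c passed it only through the undifferentiated WT libraries. Levels are given as CPM, counts scaled to the effective size of each library, and as TPM, which are also scaled to gene length, wherever genes are set against each other.

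The 12 libraries came from Bl/6J embryonic stem cells in 4 groups of 3. C48S cells carry Oct4, the pluripotency factor encoded by Pou5f1, with a serine in place of a cysteine, and all C48S libraries are of a single derived clone, number 46. WT cells are labelled as wild type, and the protocol describes the C48S line as derived from a parental line. The groups were C48S and WT cells after 2 days with retinoic acid (RA, 1.5 mg/L) in medium without leukaemia inhibitory factor (LIF), and C48S and WT cells kept undifferentiated with the MEK inhibitor PD (1 µM), the GSK3 inhibitor CHIR (3 µM) and ascorbic acid. Whether the inhibitors and ascorbic acid were kept during RA is not given, so RA and the change of medium cannot be told apart, and neither can the C48S change and any other property of the clone. A treatment field of the labels gives RA days 5, 6 and 7 for C48S RA replicates 1 to 3 and days 2, 3 and 4 for WT RA replicates 1 to 3, whereas the titles and the protocol give day 2 for all. If that field held, line and RA day could not be told apart after RA. The libraries are not said to be separate cultures, so p-values rest on a spread between libraries that could be technical alone. Gene counts cannot check the C48S label, since a change of 1 residue leaves the Pou5f1 transcript countable. The comparisons ask how the lines differ in each state and how each responds to RA.

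The eggs of mammals are stocked with RNA and protein on which the embryo depends until its own genome is active, and genes whose loss in the mother stops the embryo are called maternal-effect genes. Ooep and Khdc3 encode parts of the subcortical maternal complex, an assembly under the egg's surface that also holds Nlrp5, Tle6, Padi6 and Zbed3. Several such genes are transcribed again in the epiblast and in embryonic stem cells, where they are read as part of the naive, LIF-dependent state and are switched off on differentiation. Pramel7 is known there for directing the degradation of Uhrf1, the partner of the DNA methyltransferase Dnmt1, through a Cul2 ubiquitin ligase, and Dppa3 for keeping Uhrf1 and Dnmt1 from methylating DNA.

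The total count per library lay between 8678088 and 13597098. C48S undifferentiated replicate 3 stood apart from the other libraries of its group, and the counts of such a pair gave a chi-square, divided by its degrees of freedom, that reached 9.88, whereas pairs of other libraries within a group reached 2.26. All 9 embryonic stem cell markers examined averaged at least 1 CPM in every group, with a summed level of 724 to 767 CPM in C48S RA, 223 to 238 CPM in WT RA, 5691 to 5797 CPM in C48S undifferentiated and 5367 to 5486 CPM in WT undifferentiated libraries. Of 15 genes that mark oocytes, 4 averaged at least 1 CPM in C48S RA, 3 in WT RA and 2 in each undifferentiated group. Sohlh2 and Zp3 did so in every group, Nobox in both RA groups and Figla in C48S RA. Sohlh2 averaged 70.7 CPM in C48S RA, 119 in WT RA, 34.5 in undifferentiated C48S and 73.2 CPM in undifferentiated WT libraries. The markers Oosp1, Zp1, Zp2 and Gdf9 stayed below 1 CPM on average in every group. Fibroblast markers, which feeder cells would bring, summed to 165 to 174 CPM in C48S RA, 171 to 179 CPM in WT RA, 442 to 597 CPM in C48S undifferentiated and 338 to 368 CPM in WT undifferentiated libraries. All 9 were detected in every group, and their part in the differences between the members was not tested. In bulk RNA, fewer cells that express a gene and less of its RNA per cell cannot be told apart.

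The sequences shown are the 250 bases ahead of the annotated start of 4 members, from RefSeq's table for GRCm38.p6, written 5′ to 3′ on the gene's strand. Khdc3 and Ooep are shown because they encode parts of the same complex and differed between the lines in opposite directions before RA. Pramel6 and Pramel7 are shown because they lie side by side, were both lower in C48S before RA and fell with RA in both lines. The windows are chr9:73102148-73102397 on the plus strand for Khdc3, chr9:78378589-78378838 on the minus strand for Ooep, chr2:87506315-87506564 on the plus strand for Pramel6 and chr2:87492419-87492668 on the minus strand for Pramel7. Capitals mark matches to CACCC, the core of a KLF-type motif, on either strand.
Khdc3: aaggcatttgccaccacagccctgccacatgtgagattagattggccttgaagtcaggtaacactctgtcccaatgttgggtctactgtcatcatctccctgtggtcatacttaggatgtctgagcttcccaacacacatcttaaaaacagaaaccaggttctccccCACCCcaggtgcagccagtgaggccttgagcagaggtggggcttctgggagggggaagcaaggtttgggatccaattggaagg
Ooep: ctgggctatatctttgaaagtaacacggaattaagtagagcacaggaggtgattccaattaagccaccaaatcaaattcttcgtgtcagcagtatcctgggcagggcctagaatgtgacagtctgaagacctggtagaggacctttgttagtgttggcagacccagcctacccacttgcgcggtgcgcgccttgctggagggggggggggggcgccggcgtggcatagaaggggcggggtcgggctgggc
Pramel6: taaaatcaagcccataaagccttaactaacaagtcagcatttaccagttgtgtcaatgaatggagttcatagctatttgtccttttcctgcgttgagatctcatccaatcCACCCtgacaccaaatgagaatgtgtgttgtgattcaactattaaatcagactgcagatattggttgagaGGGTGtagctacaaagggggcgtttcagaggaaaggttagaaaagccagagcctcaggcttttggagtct
Pramel7: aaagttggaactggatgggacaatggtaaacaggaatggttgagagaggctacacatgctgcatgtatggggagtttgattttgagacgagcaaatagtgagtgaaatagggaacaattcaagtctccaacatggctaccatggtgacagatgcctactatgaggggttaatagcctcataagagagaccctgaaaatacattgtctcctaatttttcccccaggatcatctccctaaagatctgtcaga
Promoters of 5 members were in the table, the fifth being that of Tcl1. The 300-base windows of the table, which also take in the 50 bases after the start, were searched on both strands for the octamer ATGCAAAT, the STAT motif TTCNNNGAA, CACCC and the E-box CACGTG. None of the 5 windows held the octamer, the STAT motif or the E-box, which were found in 1.74, 8.3 and 7.15% of all 32851 windows. CACCC was found in all but the window of Ooep, with 2 matches each for Tcl1 and Pramel6 and 1 each for Khdc3 and Pramel7, the last of them beginning at base 14 after the start and so outside the stretch printed. It occurred in 57.5% of all windows. The Ooep stretch had 11 CpG and 57.2% G and C, that of Khdc3 0 CpG and 52.4%, that of Pramel6 2 CpG and 42.0% and that of Pramel7 1 CpG and 43.2%. Aligned end to end, Pramel6 and Pramel7 matched at 42.5% of positions, within the 41.2 to 49.4% of all 10 pairs of the 5 members.

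Before RA, Khdc3 and Tcl1 were higher in the C48S line, and the other 7 genes were lower in it, from Khdc1a and Khdc1c, which were nearly silent, through Pramel6 and Pramel7, which were low, to Dppa5a, which differed little. By edgeR's quasi-likelihood test with Benjamini-Hochberg adjustment, 2 members were thus called higher and 7 lower at an adjusted p under 0.05, where 55.6% of all 17940 genes tested were called (27.5% higher and 28.1% lower). The median difference of the 9 was -2.37 on the log2 scale, against 0.0014 for all genes tested. Khdc1a and Khdc1c count among the 7 and in this median, although they passed the low-count filter only through undifferentiated WT libraries. Their direction was thus fixed in advance by the filter. After RA, 2 members were called higher in C48S (Khdc3 and Ooep) and 2 lower (Pramel6 and Dppa5a), with a background of 54.5% (28.8% higher and 25.7% lower), a share near that of the members. The median was then -0.061, against 0.023 for all genes.

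**Figure D1:**
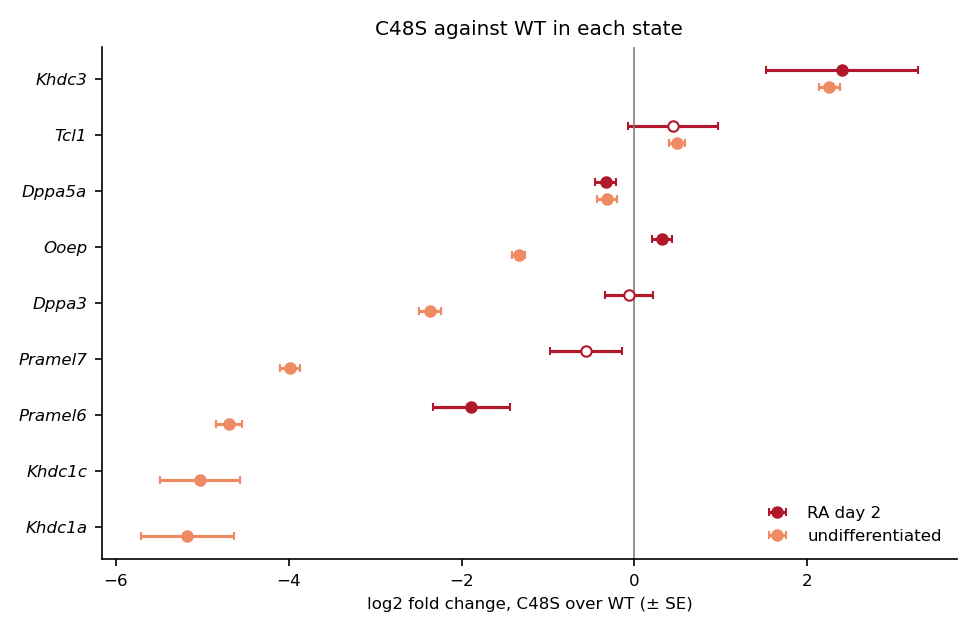
Log2 fold change of C48S over WT (x axis) for each member after RA (dark red) and undifferentiated (orange), with SE from the model of all 12 libraries, 3 per group. Filled points passed the test. Khdc1a and Khdc1c have no point after RA because they had 2 counts or fewer in each line. Before RA 7 members lie left of 0, from -0.32 for Dppa5a to -5.18 for Khdc1a, and after RA the values lie between -1.89 and 2.41.

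After RA the level of the whole group was lower in both lines. In WT all 9 members fell, with a background of 78.3% called, 40.9% higher and 37.4% lower, and in C48S 8 of 9 fell, with a background of 73.6% called, 39.0% higher and 34.6% lower. The exception was Khdc1a in C48S, which already had only 3 counts over the group before RA. The median change was -2.95 in C48S and -5.76 in WT, against 0.049 and 0.055 for all genes tested. The RA changes of the lines differed for 5 members, each with the higher value in C48S (39.4% of all genes were called in the interaction, 22.2% higher in C48S and 17.2% lower). For Khdc1a that call rests on 2 counts in C48S RA, 2 in WT RA, 3 in undifferentiated C48S and 120 in undifferentiated WT libraries, and it was lost without C48S RA replicate 1 or 3, without WT RA replicate 1 or 3 and with no low-count filter (adjusted p up to 0.154). Both comparisons with RA share the undifferentiated libraries with the comparison before RA, so these counts are not independent of each other. For Khdc1a and Khdc1c the filter, passed only through undifferentiated WT libraries, also fixed the fall in WT and the direction of the interaction.

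**Figure D2:**
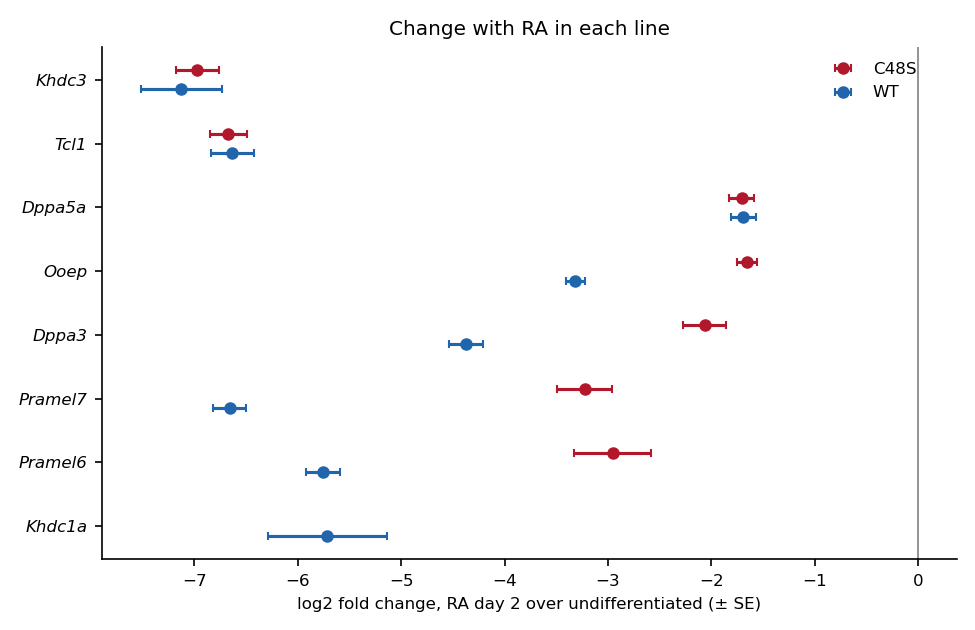
Log2 fold change of RA day 2 over undifferentiated cells (x axis) for each member in C48S (red) and WT (blue), with SE from the model of all 12 libraries, 3 per group. Every point shown passed the test. The changes of Khdc3, Tcl1 and Dppa5a were not called different between the lines, whereas Ooep, Dppa3, Pramel7 and Pramel6 fell less in C48S. Khdc1c, with 0 counts after RA, and Khdc1a in C48S are not drawn.

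Ooep, a KH-domain-like part of the subcortical maternal complex (ENSMUSG00000032346, chr9:78283391-78286007 on the minus strand; gene positions are given on GRCm39, as in the files) had 13.8, 14.3 and 15.7 CPM in the C48S RA libraries and 12.02, 13.0 and 9.86 CPM in the WT RA libraries. Undifferentiated C48S libraries held 43.0, 44.0 and 51.0 CPM, and undifferentiated WT libraries 119.8, 122 and 107 CPM. Before RA every C48S library thus lay below every WT library, and after RA every C48S library lay above every WT library. The difference was -1.34 ± 0.078 (SE) before RA (adjusted p = 1.03e-16), a level 2.53-fold lower in C48S. After RA it was 0.32 ± 0.11 (adjusted p = 0.0169), a small difference that missed the threshold without WT RA replicate 3 (0.19, adjusted p = 0.194), without C48S RA replicate 3 (adjusted p = 0.0892) and with DESeq2 (adjusted p = 0.0564). Ooep fell by 1.65 ± 0.094 in C48S and fell by 3.31 ± 0.094 in WT, and the changes differed by 1.66 ± 0.14 (adjusted p = 3.32e-12).

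Khdc3, also called Filia, its partner in that complex and known in mouse embryonic stem cells for a part in genome stability (ENSMUSG00000092622, chr9:73009118-73011720, plus strand), was higher in C48S before RA, where Ooep was lower. The C48S RA libraries had 0.307, 0.561 and 0.317 CPM and the WT RA libraries 0, 0.172 and 0 CPM, which is 14 counts in C48S and 2 in WT. The undifferentiated C48S libraries had 46.6, 45.1 and 58.3 CPM and the undifferentiated WT libraries 11.6, 10.5 and 9.22 CPM. The lines did not overlap in either state, with C48S the higher. Before RA the difference was 2.25 ± 0.12 (adjusted p = 1.72e-17), or 4.78-fold, the 285th largest rise among the 17940 genes. After RA the ratio of the counts was 6.08 (95% counting interval 1.40 to 55.1) and the fitted difference 2.41 ± 0.88 (adjusted p = 0.0203). That call was lost without WT RA replicate 1 or 3 (adjusted p = 0.0793 and 0.0892) or without C48S RA replicate 2 (0.0737), and without WT RA replicate 2, the WT RA library with the 2 counts, the fitted value was 5.09. In a fit of the RA groups alone Khdc3 did not pass the low-count filter and was not tested. Khdc3 fell by 6.97 ± 0.21 in C48S, or 127-fold, the second largest fall of all genes tested in that line. In WT it was 165-fold lower after RA (95% counting interval 45.3 to 1369), and the difference of the changes did not pass the test (0.15 ± 0.49, adjusted p = 0.839). Without WT RA replicate 2 the fitted change in WT was -9.80, against -6.65 and -6.64 without WT RA replicate 1 or 3, and on leaving out single libraries the difference of the changes ranged from -0.36 to 2.83.

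Per unit length, Khdc3 and Ooep were at about the same level in undifferentiated C48S cells, with a Khdc3 to Ooep ratio of 1.13 ± 0.062 in TPM, whereas in undifferentiated WT cells Khdc3 was at 0.0937 ± 0.0067 of Ooep (SD, n = 3 each). The ratios by library were 1.13, 1.07 and 1.19 in C48S and 0.101, 0.0898 and 0.0899 in WT. A read-through gene on the same strand, Gm20509, overlaps Khdc3, shares 42.8% of its 50-base words and had 1 count over all 12 libraries. Read pairs that fit both genes could have been lost, so the level of Khdc3 per length and its ratio to Ooep are uncertain.

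**Figure D3:**
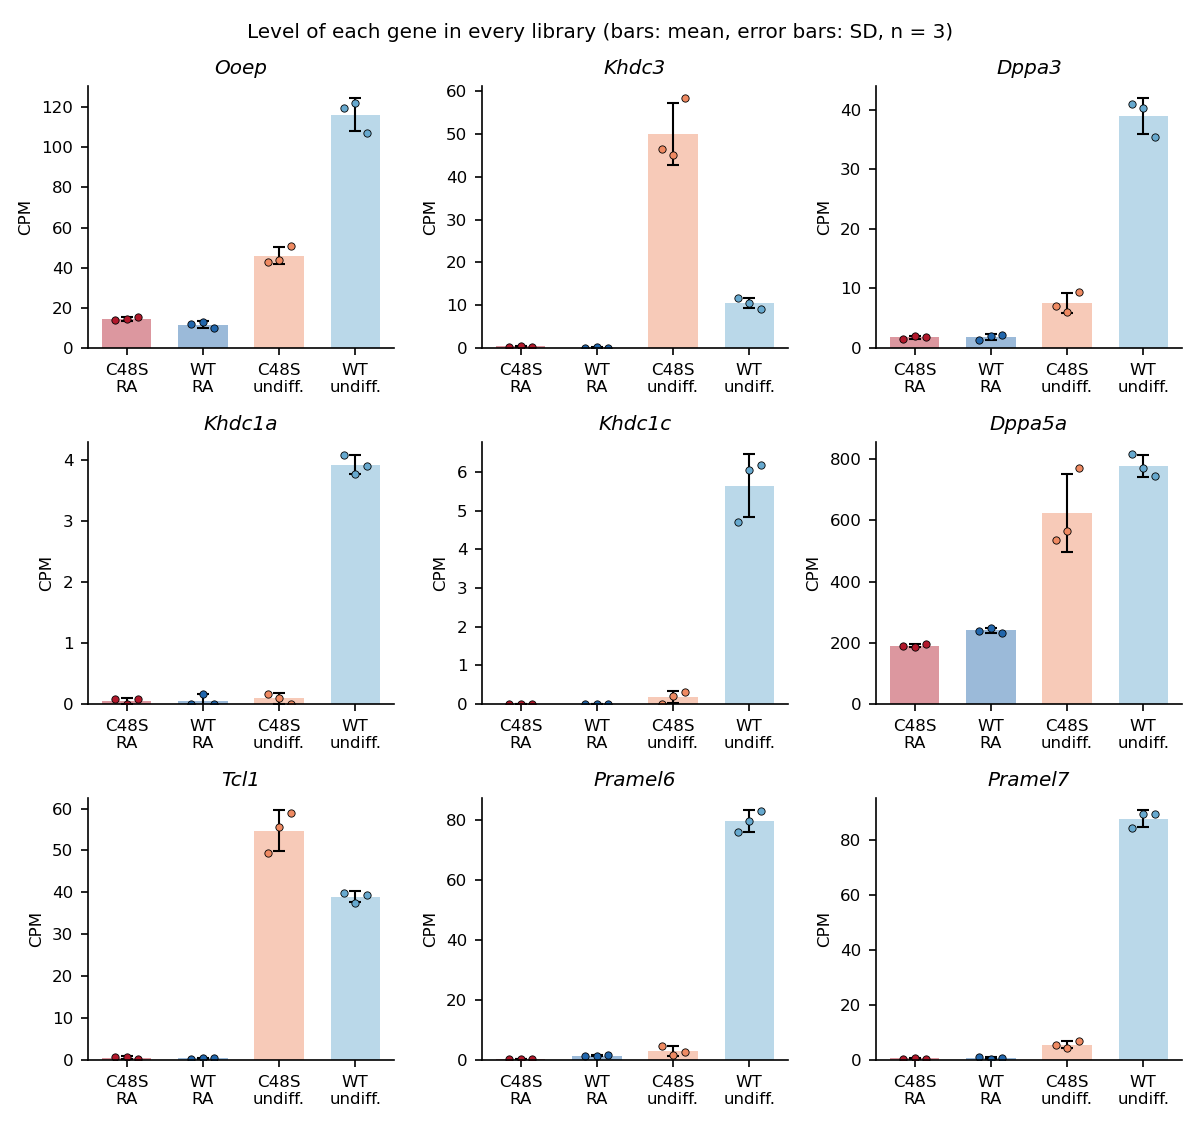
CPM (y axis, from 0, with its own scale in each panel) of the 9 members in the 12 libraries, grouped as C48S RA, WT RA, C48S undifferentiated and WT undifferentiated. Points are libraries, bars are means and error bars SD (n = 3). Khdc3 and Tcl1 are highest in undifferentiated C48S cells and the other 7 genes in undifferentiated WT cells, and after RA Ooep and Dppa5a alone stay above 3 CPM.

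The rest of the subcortical maternal complex was uneven. Of 6 other genes, 3 passed the low-count filter, and Nlrp5, Padi6 and Nlrp2 did not, with 0.629 CPM or less on average in every group and no count of Nlrp2 in any library. Before RA Zbed3 (1.08 ± 0.13) and Nlrp4f (0.82 ± 0.062), an NLR protein of the complex, were called higher in C48S and Tle6 lower (-0.79 ± 0.14). After RA all 3 were called higher in C48S, by 0.85 ± 0.13 for Zbed3, 1.84 ± 0.083 for Nlrp4f and 0.27 ± 0.086 for Tle6. Over all genes tested, 27.5% were called higher and 28.1% lower before RA, and 28.8% higher and 25.7% lower after RA. Tle6, a Groucho-family corepressor relative, did not follow Ooep and Khdc3 with RA. It averaged 44.8 ± 0.52 CPM in C48S RA, 37.1 ± 2.7 CPM in WT RA, 6.55 ± 0.27 CPM in undifferentiated C48S and 11.4 ± 2.1 CPM in undifferentiated WT cells (SD, n = 3), and rose with RA by 2.77 ± 0.11 in C48S and 1.71 ± 0.11 in WT. Nlrp4f fell in both lines (-1.45 ± 0.064 in C48S and -2.47 ± 0.080 in WT).

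Dppa3, also called Stella (ENSMUSG00000046323, chr6:122603369-122607231, plus strand), protects the maternal genome of the zygote from loss of DNA methylation. It was at 1.54, 2.06 and 1.82 CPM in the C48S RA libraries and at 1.35, 1.97 and 2.25 CPM in the WT RA libraries. It was at 7.13, 6.07 and 9.41 CPM in undifferentiated C48S libraries and at 41.0, 40.2 and 35.5 CPM in undifferentiated WT libraries. The lines were far apart before RA and overlapped after it. The difference was -2.37 ± 0.13 before RA (adjusted p = 1.31e-17), 5.16-fold lower in C48S, and -0.061 ± 0.28 after RA (adjusted p = 0.869). Dppa3 fell by 2.06 ± 0.21 in C48S and fell by 4.37 ± 0.16 in WT, a difference of 2.31 ± 0.31 (adjusted p = 1.90e-07). Its chromosome ran against it, by medians over tested protein-coding genes that averaged at least 1 CPM. For the 659 such genes of chromosome 6 the median was 0.58 before RA and 0.63 after RA, higher in C48S. The medians of chromosomes 1, 2, 9 and 12, which carry the other members, lay between -0.079 and 0.046. Of the 50-base words of Dppa3, 17.7% occur in other genes, chiefly the pseudogene Dppa3-ps, so some of its read pairs could have been lost or split.

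Khdc1a and Khdc1c are neighbouring KH-domain genes of the oocyte and cleavage embryo (ENSMUSG00000067750, chr1:21419865-21422424, and ENSMUSG00000041722, chr1:21438555-21441069, both on the plus strand and 16.1 kb apart). Khdc1a had 2 counts over the C48S RA libraries and 2 over the WT RA libraries, so no fold is given after RA. Before RA it was at 0.170, 0.107 and 0 CPM in C48S and at 4.09, 3.78 and 3.90 CPM in WT. With 3 counts against 120 it was 40.2-fold lower in C48S (95% counting interval 13.4 to 198), and the fitted difference was -5.18 ± 0.54 (adjusted p = 3.03e-10; -5.93 without C48S replicate 1). With RA it was 61.7-fold lower in WT (95% counting interval 16.7 to 516). Both WT RA counts were in replicate 2, without which the fitted change in WT was -8.39, against -5.24 and -5.23 without WT RA replicate 1 or 3. In C48S the 2 counts after RA and 3 before it allow no fold.

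Khdc1c had no count in any of the 6 RA libraries. Before RA it was at 0, 0.213 and 0.310 CPM in C48S and at 4.72, 6.05 and 6.18 CPM in WT, which is 5 counts against 174. The difference was -5.02 ± 0.46 (adjusted p = 7.67e-11), with -4.37 without C48S replicate 1 and -5.73 without C48S replicate 3. With 3 counts over the RA group as the floor, the WT level after RA was at least 59.7-fold lower than before it. On that floor the C48S level was at least 1.96-fold lower (adjusted p = 0.0223). Both values take the counts before RA, 174 in WT and 5 in C48S, as exact. That call in C48S was lost without C48S undifferentiated replicate 3 (adjusted p = 0.0865) or without C48S RA replicate 1 or 3 (0.0535 and 0.0523). Another gene of the cluster, Khdc1b, did not pass the low-count filter. It had 0 counts in undifferentiated C48S cells against 51 in undifferentiated WT cells, at least 17.1-fold lower on a floor of 3 counts with the 51 taken as exact. Khdc1a and Khdc1c share 43.1% of the 50-base words of Khdc1c, so reads may be split between them or lost, and their values are uncertain as single genes.

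Dppa5a, also called Esg1, an RNA-binding protein of embryonic stem cells (ENSMUSG00000060461, chr9:78274334-78275459, minus strand), was the most abundant member per length in every group. It was at 189, 187 and 196 CPM in C48S RA and at 240.1, 249.5 and 232 CPM in WT RA libraries. Undifferentiated libraries held 537, 566 and 770.2 CPM in C48S, the last in the replicate that stood apart, and 815, 769.9 and 746.5 CPM in WT. Before RA the groups overlapped, and after RA every C48S library lay below every WT library. The differences were small, -0.32 ± 0.12 before RA (adjusted p = 0.0454) and -0.33 ± 0.12 after RA (adjusted p = 0.0464), each barely past the threshold. The call before RA was lost on leaving out any 1 of the 12 libraries except C48S undifferentiated replicate 3 (adjusted p up to 0.138), without which the difference was -0.49 (adjusted p = 1.04e-27). The call after RA was lost without any 1 of the 6 RA libraries or without WT undifferentiated replicate 2 (adjusted p between 0.0508 and 0.113). Dppa5a fell by 1.71 ± 0.12 in C48S and fell by 1.69 ± 0.12 in WT, about 3.27- and 3.23-fold, and the difference of the changes was -0.016 ± 0.17 (adjusted p = 0.958). Without C48S undifferentiated replicate 3 that difference turned to 0.16 and passed the test (adjusted p = 0.00881). Of its 50-base words 38.6% occur in 9 other genes and pseudogenes.

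Tcl1, a coactivator of the kinase AKT that early mouse embryos need from the mother (ENSMUSG00000041359, chr12:105183009-105189052, minus strand), was at 0.768, 0.655 and 0.159 CPM in C48S RA and at 0.207, 0.429 and 0.488 CPM in WT RA libraries. Undifferentiated libraries held 49.4, 55.5 and 59.1 CPM in C48S and 39.9, 37.5 and 39.5 CPM in WT. The lines did not overlap before RA and did after it. C48S was higher by 0.49 ± 0.092 before RA (adjusted p = 2.43e-05), or 1.40-fold, and the difference after RA did not pass the test (0.45 ± 0.52, adjusted p = 0.489). Tcl1 fell by 6.67 ± 0.18 in C48S and fell by 6.63 ± 0.21 in WT, 103.7-fold in C48S and 103.9-fold in WT, and the difference of the changes did not pass the test (-0.040 ± 0.77, adjusted p = 0.979). The 5 genes of the adjacent Tcl1b family, which the egg also expresses, did not pass the low-count filter, and 4 of them had no count in any library.

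Pramel6 and Pramel7, leucine-rich repeat proteins that support the naive state of mouse embryonic stem cells, lie 9.47 kb apart on opposite strands (ENSMUSG00000025838, chr2:87336909-87341216, plus strand, and ENSMUSG00000025839, chr2:87319431-87327437, minus strand). Pramel6 was at 0.307, 0.468 and 0.396 CPM in C48S RA and at 1.35, 1.46 and 1.56 CPM in WT RA libraries. It was at 4.67, 1.598 and 2.59 CPM in undifferentiated C48S and at 76.0, 79.7 and 83.1 CPM in undifferentiated WT libraries. C48S lay below WT in both states without overlap, and replicate 1 of undifferentiated C48S was the highest of its 3 libraries. The difference was -4.69 ± 0.15 before RA (adjusted p = 5.28e-23), 27.0-fold, and -1.89 ± 0.45 after RA (adjusted p = 5.79e-04). Pramel6 fell by 2.95 ± 0.37 in C48S and fell by 5.76 ± 0.17 in WT, and the changes differed by 2.81 ± 0.62 (adjusted p = 4.22e-04).

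Pramel7 was at 0.538, 0.842 and 0.396 CPM in C48S RA and at 1.24, 0.515 and 0.879 CPM in WT RA libraries. It was at 5.35, 4.37 and 6.83 CPM in undifferentiated C48S and at 84.3, 89.4 and 89.7 CPM in undifferentiated WT libraries. The lines were far apart before RA and overlapped after it. The difference was -3.99 ± 0.12 before RA (adjusted p = 3.37e-25), 15.9-fold, and -0.56 ± 0.42 after RA (adjusted p = 0.265). Pramel7 fell by 3.23 ± 0.27 in C48S and fell by 6.66 ± 0.16 in WT, and the changes differed by 3.43 ± 0.50 (adjusted p = 6.27e-07). Per length both genes were near equal in undifferentiated WT cells (Pramel7 to Pramel6 ratio 1.08 ± 0.021), and in undifferentiated C48S cells the ratio was 1.12, 2.67 and 2.58 by library. Neither shares more than 0.442% of its 50-base words with another gene.

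Of 10 genes that members act on or with, 1 was called higher and 6 lower in C48S before RA, with a median of -0.17. The ligase genes Cul2 (-0.72 ± 0.063) and Eloc (-0.38 ± 0.071) were lower, as was Uhrf1 (-0.20 ± 0.044), and Dnmt1 was higher (0.31 ± 0.043). After RA 1 was called higher and 2 lower. With RA 2 rose and 7 fell in C48S, and 2 rose and 8 fell in WT, with Uhrf1 down by 1.18 ± 0.045 in C48S and by 1.21 ± 0.045 in WT. In the interaction 4 were called, all with the higher value in C48S, the largest being Ddx43 (1.23 ± 0.24) and Cul2 (0.82 ± 0.091). Of all genes tested, 55.6% were called between the lines before RA and 54.5% after it. For the RA change 73.6% were called in C48S, 78.3% in WT and 39.4% in the interaction.

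In order of level per length, undifferentiated C48S cells had Dppa5a first at 3196 ± 508 TPM, then Tcl1 at 94.2 ± 6.1, Khdc3 at 77.4 ± 7.8 and Ooep at 68.4 ± 3.5 TPM, then Dppa3 at 26.8 ± 4.9, Pramel7 at 8.18 ± 1.5 and Pramel6 at 4.52 ± 2.5 TPM, with Khdc1c and Khdc1a below 1 TPM (SD, n = 3). Undifferentiated WT cells had Dppa5a at 3795 ± 136, Ooep at 164 ± 9.6, Dppa3 at 132 ± 8.6, Pramel7 at 124 ± 5.3, Pramel6 at 116 ± 6.4, Tcl1 at 63.8 ± 2.5, Khdc3 at 15.4 ± 1.6, Khdc1c at 8.78 ± 1.3 and Khdc1a at 5.97 ± 0.23 TPM. Khdc3 had rank 3 of 9 in C48S and rank 7 in WT. Neighbours in these orders whose SD ranges overlap are Khdc3 and Ooep, Pramel7 and Pramel6, and Khdc1c and Khdc1a in C48S, and Dppa3 and Pramel7, and Pramel7 and Pramel6, in WT. After RA Dppa5a, Ooep and Dppa3 led in both lines, at 1159 ± 41, 25.6 ± 2.0 and 7.61 ± 1.1 TPM in C48S and 1463 ± 54, 20.5 ± 2.8 and 7.83 ± 1.9 TPM in WT, and every other member was below 3 TPM.

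Genes next to the members differed between the lines in both directions. Dppa5a and Ooep are 7.93 kb apart on the same strand and differed between the lines by -0.32 and -1.34 before RA, and Ddx43, a helicase gene beside Ooep, by -1.02 ± 0.15 (adjusted p = 6.43e-07). Eef1a1, a translation elongation factor gene farther from Ooep, was also lower (-0.61 ± 0.046). Within 100 kb of Khdc3, Rab27a (0.91 ± 0.12), 2310009A05Rik (0.51 ± 0.20), Pigb (0.34 ± 0.10) and Rsl24d1 (0.25 ± 0.056) were called higher in C48S and Ccpg1 lower (-0.56 ± 0.12), none by as much as Khdc3. Near Dppa3, Apobec1 (1.14 ± 0.17), Mfap5 (0.56 ± 0.17), Slc2a3 (0.47 ± 0.044) and Gdf3 (0.32 ± 0.057) were called higher, and Gm10224 (-0.63 ± 0.25) and Nanog (-0.32 ± 0.042) lower. The median of the 659 genes of chromosome 6 was 0.58 before RA, and Mfap5, Slc2a3 and Gdf3 lay at or below it. Near the Khdc1 genes, Kcnq5 did not pass the test (-0.077 ± 0.36, adjusted p = 0.875). Gsta3, a glutathione transferase gene farther from them on the other side, was lower (-1.73 ± 0.21, adjusted p = 7.80e-09). Near Pramel6 and Pramel7 Olfr153, an olfactory receptor gene and the other gene tested there, gave -0.79 ± 0.41 (adjusted p = 0.0998).

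**Figure D4:**
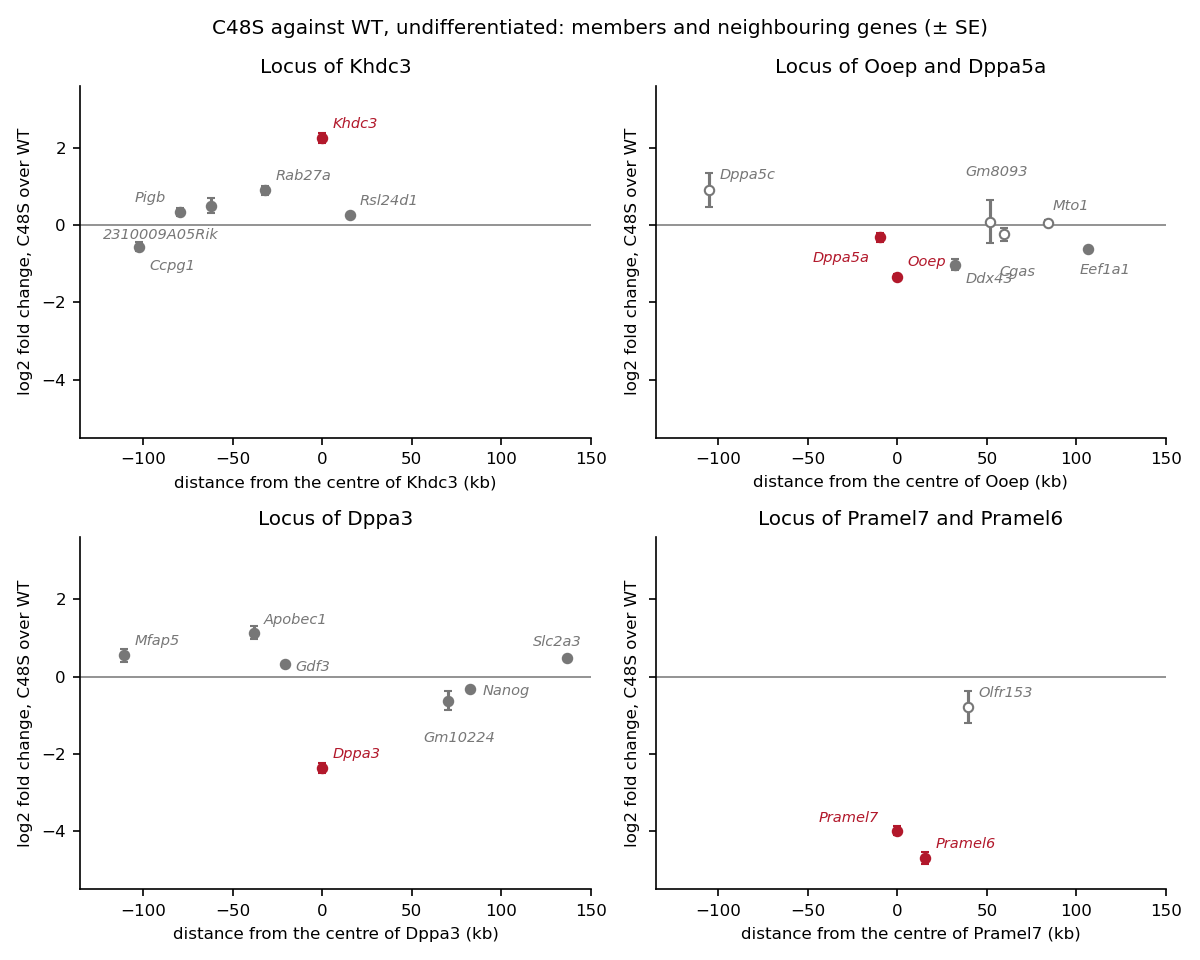
Log2 fold change of C48S over WT before RA (y axis, with SE) of members (red) and of the neighbouring genes within 100 kb that are named in the text or did not pass the test (grey), by distance in kb from the centre of the member named under each panel. Filled points passed the test. Dppa3 at -2.37 lies between Gdf3 at 0.32 and Nanog at -0.32, and Khdc3 at 2.25 lies above its neighbours, the highest of which is Rab27a at 0.91.

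The 2 protein-coding genes nearest in pattern to each member were taken by Euclidean distance between log2 CPM profiles over the 12 libraries, each centred on its own mean, among 14771 genes. They were Olig1 (distance 0.622) and Zyg11a (0.722) for Ooep, Trpm1 (1.93) and Nr0b1 (3.21) for Khdc3, and Ms4a10 (1.06) and Zfp428 (1.18) for Dppa3. For Khdc1a they were Calcoco2 (1.36) and Ephx2 (1.39), and for Khdc1c Cybb (1.30) and Serpina3m (1.51). Dppa5a had Pfas (0.383), an enzyme of purine synthesis, and Ftsj3 (0.425), an rRNA methyltransferase. Tcl1 had Fgf4 (2.81), a growth factor of embryonic stem cells, and Trpm1 (2.83). For Pramel6 they were Gm281 (2.56) and Stk33 (2.65), and for Pramel7 Osm (2.31), a cytokine of the LIF family, and Serpina3m (2.54). All were picked for their likeness to a member over these same 12 libraries, so the values given for them here are no separate support. Osm was 1.42 ± 0.57 CPM in undifferentiated C48S and 43.2 ± 2.7 CPM in undifferentiated WT cells (SD, n = 3), a difference of -4.94 ± 0.18 (adjusted p = 9.62e-23). Trpm1, a cation channel gene and the nearest to Khdc3, was higher in C48S before RA (1.38 ± 0.086) and after RA (1.596 ± 0.33), and fell by 5.31 ± 0.13 in C48S and fell by 5.52 ± 0.19 in WT. Of these pairs, both genes stayed the nearest with a prior count of 0.5 for Ooep, Dppa3, Dppa5a and Khdc1c, 1 of 2 for Khdc3, Tcl1, Pramel6 and Pramel7 and none for Khdc1a, and with Pearson correlation no pair kept a gene.

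Other genes of the egg and of the members' families did not share 1 direction. Of 19 other maternal-effect factors, 14 were tested, and 5 were called higher and 5 lower in C48S before RA, with a median of 0.034. Ezh2, the Polycomb methyltransferase, was higher by 1.08 ± 0.049 and Zfp57, which guards imprints, by 0.53 ± 0.044, whereas Ago2 (-0.62 ± 0.059) and Trim28 (-0.55 ± 0.056) were lower. After RA 7 were called higher and 3 lower, led by Zfp57 (1.83 ± 0.050). With RA 2 rose and 11 fell in C48S, and 2 rose and 9 fell in WT, and Tet3, the dioxygenase of the zygote, rose by 1.72 ± 0.069 in C48S and by 1.31 ± 0.070 in WT. The RA changes differed for 9 of the 14, 7 with the higher value in C48S. Of all genes tested, 39.4% were called in that interaction, 55.6% between the lines before RA and 54.5% after it. For the RA change 73.6% were called in C48S (39.0% higher and 34.6% lower) and 78.3% in WT (40.9% higher and 37.4% lower).

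Of 15 oocyte identity genes 4 were tested. Sohlh2, a transcription factor of the young oocyte, was lower in C48S before RA (-1.08 ± 0.069) and after RA (-0.75 ± 0.061) and rose with RA in both lines (1.03 ± 0.069 in C48S and 0.70 ± 0.062 in WT). Zp3, a coat protein of the egg, was at 2.43 ± 0.80 CPM in C48S RA, 1.85 ± 0.86 CPM in WT RA, 6.01 ± 0.76 CPM in undifferentiated C48S and 14.3 ± 1.4 CPM in undifferentiated WT cells (SD, n = 3). It was lower in C48S before RA (-1.24 ± 0.18), was not called after RA (0.36 ± 0.29, adjusted p = 0.306), and fell less in C48S (interaction 1.604 ± 0.34, adjusted p = 2.49e-04), as Ooep, Dppa3 and both Pramel genes did. Nobox, an oocyte homeobox gene, had 82 counts in C48S RA against 138 in WT RA libraries, and 2 in undifferentiated C48S against 4 in undifferentiated WT libraries. After RA it was lower in C48S (-0.95 ± 0.27, adjusted p = 0.00369). Figla, a factor of the primordial follicle, had 65 counts in C48S RA against 14 in WT RA libraries and was higher in C48S (2.00 ± 0.49, adjusted p = 8.22e-04). Figla passed the low-count filter only through the C48S RA libraries, so that direction was fixed in advance.

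Of 16 relatives of the members 7 were tested, 1 of which was called higher and 2 lower in C48S in each state. The shares over all genes tested were 55.6% called before RA and 54.5% after it. Before RA Dppa2 (-1.05 ± 0.059) and Dppa5b (-0.93 ± 0.36) were lower and Pramel1 was higher (0.78 ± 0.19). Dppa2 and Dppa4 form a pair of chromatin factors, and Dppa4 did not pass the test before RA (0.082 ± 0.057, adjusted p = 0.229). After RA Dppa2 was lower in C48S (-0.48 ± 0.057) and Dppa4 higher (0.71 ± 0.061), and Pramel5 had 1 count in C48S against 57 in WT (65.6-fold lower, 95% counting interval 11.3 to 2637). Pramel5 passed the low-count filter only through the WT RA libraries, so its direction after RA was fixed in advance. With RA 3 of the 7 rose and 3 fell in C48S, and 3 rose and 4 fell in WT, where 73.6 and 78.3% of all genes tested were called.

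The stem cell markers were set beside the members after RA. All 9 were called higher in C48S, with a median of 2.50, among them Esrrb (3.23 ± 0.070) and Nanog (2.50 ± 0.061), whereas of the members Khdc3 and Ooep were higher, Pramel6 and Dppa5a lower and 5 were not called. Before RA 4 markers were called higher and 3 lower, with a median of 0.12, and Klf4 was the largest rise (1.59 ± 0.052). All 9 markers fell with RA in both lines, with a median of -2.94 in C48S and -4.67 in WT. Of 9 genes that respond to RA, all 9 rose in both lines, with a median of 5.84 in C48S and 6.36 in WT. Between the lines 5 of these were called higher and 3 lower in C48S after RA, and 2 higher and 1 lower before it. Of the 9 fibroblast markers, 4 were called higher and 3 lower in C48S before RA, and 1 higher and 4 lower after RA. With RA 3 of them rose and 6 fell in C48S, and 5 rose and 4 fell in WT. The shares called over all genes tested were 55.6% between the lines before RA and 54.5% after it. For the RA change they were 73.6% in C48S and 78.3% in WT.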

How the data were processed

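RNA was measured in 12 libraries of mouse embryonic stem cells, made from total RNA depleted of ribosomal RNA, per the labels' protocols. The authors deposited 1 file of unnormalized counts for each library, made, per the file headers, with featureCounts 1.6.3 on read pairs, strand option 2, assignment to the largest overlap and Ensembl GRCm39 gene models of release 104. STAR 2.7.9a, DESeq2 and the build mm39 are named in the submitters' processing notes. Counting used strand, which separates genes from antisense partners, but read pairs of near-identical genes could be dropped or shared between them.

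Symbols came from GENCODE M21 by gene identifier (52135 identifiers, 94.1%), and coordinates from the files. Titles gave the groups, by line and culture state. The test was edgeR's robust quasi-likelihood test (version 4.0.16, R 4.3.3) after filterByExpr with a minimum count of 10 and TMM scaling, on 1 model of all 12 libraries with 4 group means and 8 residual degrees of freedom. Of all genes, 17940 were tested, and a gene was called at a two-sided Benjamini-Hochberg adjusted p under 0.05. Folds not on the log2 scale are ratios of mean CPM. Where a group had 1 to 3 counts, the ratio of summed counts is given with its exact 95% interval, and with no count a bound against 3 counts over the group. The intervals cover counting error only, and the bounds take the count of the other group as exact. At these depths, genes near 1 CPM have wide intervals. The procedure was tested on simulated data in which only well-counted genes were changed, so that test does not reach members with few counts.

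The members and gene lists were chosen with earlier results of these data known. Named are all members, up to 4 genes per list and comparison with the smallest adjusted p (every gene of a list with at most 5 tested), the 2 genes nearest in pattern and neighbours within 100 kb. Zp1, Zp2, Gdf9 and Oosp1 were named after their values were seen. Pramel12, Pramel13, Pramel17 and Pramel51 had no matching symbol. A few genes that this rule names are left out of the text and not reported here. The lists were other parts of the subcortical maternal complex, other maternal-effect factors, oocyte identity, family relatives, partners of members, stem cell, fibroblast and RA response genes. As alternatives, DESeq2 1.42.0, RLE scaling, 2 further filters on low counts, fits of the compared groups alone, a replicate block, leaving out chromosomes 6, 8, 11 and Y, and leaving out each library were run.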

Additional observations from a re-analysis of the deposited data

Results flagged for a closer look

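The change with RA differed between the lines by a test of the difference itself (C48S minus WT, on the log2 scale) for 5 members. Of all genes tested, 39.4% were called in that test. The difference was 1.66 for Ooep, 2.31 for Dppa3, 2.81 for Pramel6 and 3.43 for Pramel7, each with the smaller fall in C48S and each past the threshold under every alternative run. For Khdc1a the fitted difference was 5.01 (adjusted p = 0.0337), which rests on 2 counts in C48S RA, 2 in WT RA, 3 in undifferentiated C48S and 120 in undifferentiated WT libraries. It depends on the prior count and is no bound, and it missed the threshold without WT RA replicate 1 or 3 (4.54 and 4.503), without C48S RA replicate 1 or 3 (4.71 and 4.69) and with no low-count filter (adjusted p = 0.0518). Its direction was fixed in advance, since Khdc1a passed the low-count filter only through the undifferentiated WT libraries.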

How the results depend on the processing

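Of the results for single members, 799 kept their side of the threshold under an alternative, 38 lost the threshold, 1 passed it anew and 1 turned. A change of direction counted as a turn only where a fit passed the threshold, so the 799 include uncalled results whose direction changed. On leaving out single libraries, the Khdc1a difference after RA ranged from -0.68 to 2.52 and that of Dppa3 from -0.24 to 0.063. The result that turned was the RA change of Dppa5a in C48S minus WT, 0.16 without C48S undifferentiated replicate 3, with a range of -0.12 to 0.16 on leaving out single libraries. The result that newly passed was the same difference for Khdc1c with DESeq2 (4.89, adjusted p = 0.0252). The difference of Dppa5a before RA missed the threshold with no low-count filter (adjusted p = 0.0505), with the compared groups alone (0.0526), with the replicate block (0.0524) and without chromosomes 6, 8, 11 and Y (0.0594). After RA, 1 member in place of 2 was called higher in C48S with the compared groups alone and with DESeq2. In the former Khdc3 did not pass the low-count filter and was not tested, and in the latter Ooep missed the threshold (adjusted p = 0.0564). Called lower was 1 in place of 2 with the replicate block (Dppa5a, adjusted p = 0.0577) and without those chromosomes (0.0535). Leaving out single libraries gave 0 to 2 higher and 1 to 2 lower. Whether the same replicate numbers pair the samples is not given. Deviations of same-numbered libraries correlated between -0.053 and 0.029 over all genes tested, where counting noise could hide a small shared effect. The replicate block changed no other call. The counts before RA were 2 higher and 6 to 7 lower on leaving out single libraries, those of RA 7 to 8 lower in C48S and 9 in WT, and those of the interaction 4 to 6. Low counts limit Khdc1a, Khdc1c and, after RA, Khdc3, Tcl1 and both Pramel genes.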
